A study of Homo sapiens with 4 samples.

Results

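The genes described here encode the core machinery of pre-mRNA splicing and its classical regulators. They were chosen by symbol alone, as the genes named SRSF with a number, HNRNP, SNRP, SF3A or SF3B with a number, or U2AF, and the rule used no measured value, although it was set with earlier results of these data known. The rule found 59 of the 16878 genes in the tables, which fall into 12 SR proteins, 22 hnRNPs, 12 snRNP proteins and 13 genes of the SF3 complexes and U2AF.

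RNA-seq was performed in PANC-1 cells, an established line from a human pancreatic ductal carcinoma, to ask which transcripts change when the deacetylase SIRT1 is depleted. The conditions were sequenced with 2 libraries each: Control cells, which went through a control transfection, and siSIRT1 cells, transfected with a small interfering RNA (siRNA) against SIRT1. RNA was taken 48 h after transfection in both conditions, and the cells carried no other alteration according to the labels. Both conditions are transient transfections of 1 cell line. The study's methods list 1 siRNA sequence against SIRT1, so an effect of SIRT1 loss and an effect of that siRNA on other transcripts cannot be told apart. The labels do not say whether the libraries of a condition came from separate cultures, so the p-values measure the spread between these libraries, which may be technical.

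In splicing, small nuclear ribonucleoprotein particles (snRNPs) assemble on the intron and remove it. Each particle is built on a ring of Sm proteins around its RNA, and the U2 particle joins the branch site with the help of the SF3A and SF3B complexes after U2AF has bound the 3′ splice site. SR proteins bind exons and mostly favour their inclusion, whereas hnRNPs coat nascent transcripts and often oppose inclusion. Levels are given as FPKM, fragments divided by transcript length and by the total mapped in that library, so they are levels per length. Changes are log2 fold changes of FPKM + 1 (siSIRT1 against Control) with their standard error (SE) and a p-value adjusted over all genes tested with limma, and a gene is said to rise or fall where that p is under 0.05.

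SIRT1 itself was at 10.5 and 10.3 FPKM in Control cells and at 1.80 and 2.05 FPKM in siSIRT1 cells, so that 18.6% of the Control level remained (log2 fold change -1.96, SE 0.11, adjusted p = 1.33e-05). The libraries held an estimated 8810000 to 9150000 reads. Epithelial keratins and vimentin, both known of this line, were abundant in all 4 libraries, and some of them moved with the condition. VIM fell from 2198 and 2049 FPKM to 1503 and 1427 FPKM (-0.53, adjusted p = 0.00126), KRT18 rose from 1587 and 1484 FPKM to 1914 and 1770.0 FPKM (0.26, 0.0350) and KRT19 rose from 327 and 313 FPKM to 394 and 365 FPKM (0.25, 0.0178). The other epithelial markers did not pass, with KRT8 at 2164 to 2745 FPKM (0.25, 0.0513), KRT7 at 2.89 to 4.04 FPKM and EPCAM at 5.34 to 11.2 FPKM. The part of these shifts in the splicing factor results was not tested. Markers of other cell types were low: PTPRC of leukocytes at 0.97 to 1.29 FPKM, PECAM1 of endothelium at 0.59 to 0.75 FPKM, and the acinar enzymes PRSS1 and CPA1 at 0.15 FPKM or less. Among all 12191 genes tested, 37.1% passed the threshold, and 64.8% of those that passed were higher in siSIRT1. That last share was 49.6% when the libraries were scaled by the median of ratios, 53.3% with quantile normalization, 55.6% with equal FPKM sums, 48.9% after removal of a trend on transcript length and 50.6% after removal of a trend on GC content. Without Control 1 or Control 2, 2744 or 2691 genes passed in place of 4521.

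The siRNA given in the study's methods is shown with its complementary strand, because its target site and its possible partial matches in the splicing factor genes follow from these letters. The capitals mark the seed of the complementary strand (its bases 2 to 8 from the 5′ end) and the letters of the listed strand that pair with it.
siRNA as listed: gugucaugguuCCUUUGCa
complementary strand: uGCAAAGGaaccaugacac
All 19 bases occur once in the canonical SIRT1 transcript, at bases 1149 to 1167 within the coding sequence, and in 0 of the splicing factor transcripts.

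Of the 59 splicing factor genes, 58 passed the filter on low values (a mean of at least 1 FPKM). The exception was HNRNPCL1, a relative of HNRNPC, which was listed at 0 in 3 libraries and at 0.11 FPKM in siSIRT1 2. U2AF1L5 passed the filter only through siSIRT1 2 and is counted among the 58. Of the 58, 30 rose, against 24% of all genes, and 3 fell, against 13.1% of all genes. The median log2 fold change was 0.23 over the 58 genes and 0.07 over all genes tested. Both siSIRT1 values lay above both Control values in 42 of the 58 (43.8% of all genes) and below them in 8 (25.2% of all genes), and 8 overlapped. Without Control 2, 19 rose and 1 fell, and without Control 1, 22 rose and 1 fell. Removing the length trend left 22 that rose and 5 that fell. With median-of-ratios scaling, 21 rose and 4 fell. The libraries are bulk samples scaled to their own totals, so a change of RNA per cell and a change in the make-up of the cultures cannot be told apart.

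The 4 classes differed in their counts. Among the snRNP proteins 10 of 12 rose and 0 fell (83.3% called, against 37.1% of all genes), with a median of 0.37. Among SF3 and U2AF genes 7 of 13 rose and 1 fell (61.5% called, median 0.26). The 13 and their median count U2AF1L5, which was not called and passed the filter only through siSIRT1 2. The SR proteins had 6 of 12 rises and 0 falls (50% called, median 0.20), and 7 of the 21 hnRNPs tested rose and 2 fell (42.9% called, near the share of all genes, median 0.11). The difference between the classes was not itself tested.

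**Figure D1:**
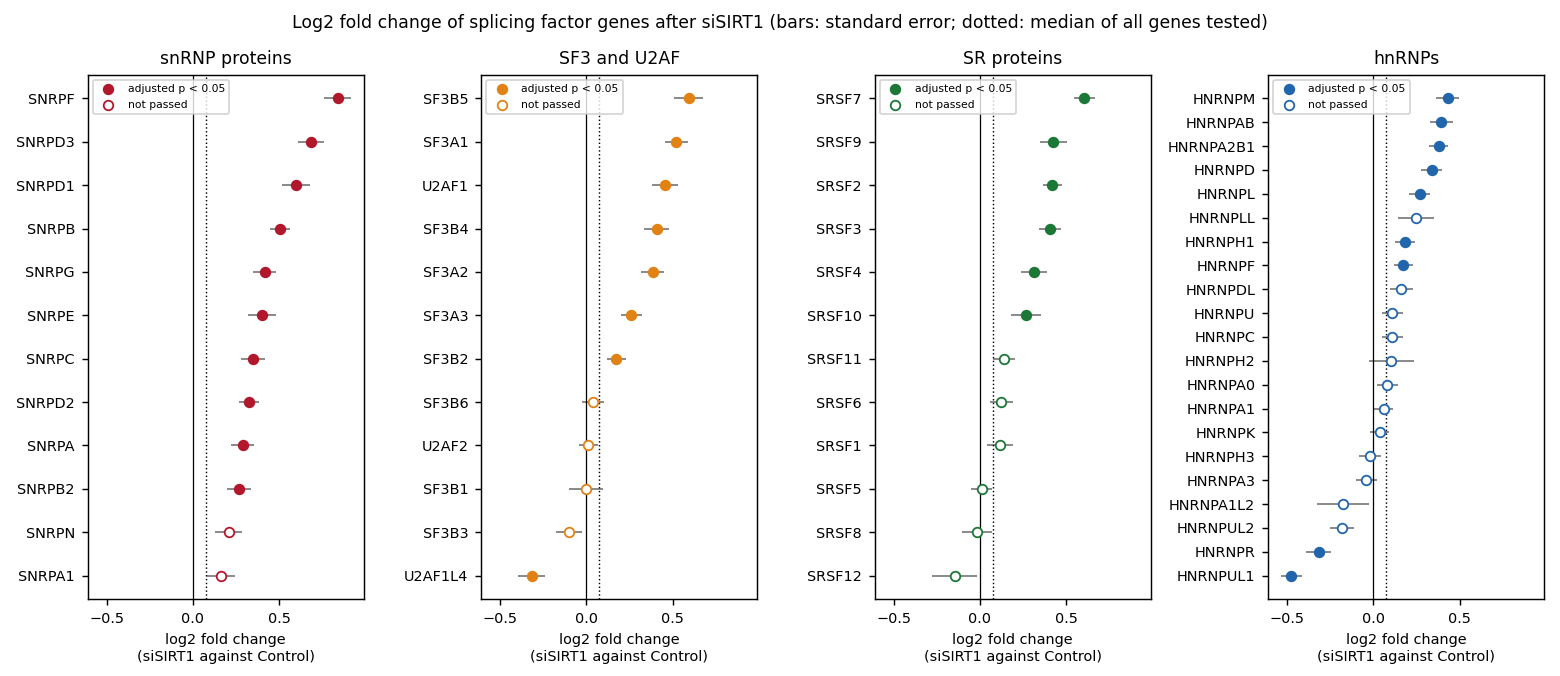
Log2 fold change (horizontal axis, siSIRT1 against Control) of each splicing factor gene tested, by class, with bars for the SE, filled points for adjusted p under 0.05 and a dotted line at the median of all genes, 0.07. All 12 snRNP proteins lie to the right of that line, up to 0.84 for SNRPF, whereas hnRNPs spread from -0.48 to 0.43; U2AF1L5 is not drawn.

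The snRNP class had the highest median of the 4 classes in the values as deposited. After removal of the length trend its median was 0.16, as for SF3 and U2AF. That SF3 and U2AF median counts U2AF1L5, which has no length and so kept its unadjusted 1.33. The summed level of the snRNP class went from 599.9 and 586.9 FPKM in Control cells to 805.8 and 774.1 FPKM in siSIRT1 cells. Over all genes, FPKM summed to 402197 and 397094 in Control cells and to 426279 and 408390 in siSIRT1 cells. In 12 of 12 snRNP genes both siSIRT1 libraries were above both Control libraries, as in 43.8% of all genes. All 7 genes of the Sm ring rose (SNRPB, SNRPD1, SNRPD2, SNRPD3, SNRPE, SNRPF and SNRPG), against 24% of all genes. The median of the ring was 0.50, with individual values from 0.32 to 0.84. Without Control 2, 5 of the snRNP genes remained past the threshold in place of 10, and after removal of the length trend 6 did.

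SNRPF, the SmF subunit (chr12:96252730-96259918 on the plus strand, GRCh37), moved most. It stood at 19.8 and 22.7 FPKM in Control cells and at 39.1 and 38.2 FPKM in siSIRT1 cells (log2 fold change 0.84, SE 0.08, adjusted p = 0.000145). These values rest on an estimated 66 and 77 reads in Control, one of the thinner counts among these genes. SNRPD3, the SmD3 subunit (chr22:24951967-24970939, plus strand), stood at 14.7 and 14.8 FPKM against 25.2 and 23.5 FPKM (0.68, SE 0.08, adjusted p = 0.000300). SmD1, encoded by SNRPD1 (chr18:19192275-19213481, plus strand), was at 12.6 and 11.8 FPKM in Control cells and at 18.7 and 19.1 FPKM in siSIRT1 cells (0.60, SE 0.08, adjusted p = 0.000760). In all 3 the gap between conditions was wider than the gap between libraries of a condition.

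SNRPB encodes SmB and SmB′ and was the most abundant gene of the class in all 4 libraries. Its level was 144.6 and 144.7 FPKM in Control cells and 211 and 200 FPKM in siSIRT1 cells (0.50, SE 0.06, adjusted p = 0.000348). SNRPD2, the second most abundant, had 141 and 134 FPKM against 170.2 and 174 FPKM (0.32, SE 0.06, adjusted p = 0.00301), and this call was lost without Control 2 (adjusted p = 0.0766). SNRPG was at 60.5 and 58.3 FPKM and then at 83.6 and 75.8 FPKM (0.42, SE 0.07, adjusted p = 0.00178). SNRPE, at 12.2 and 11.8 FPKM and then 16.4 and 15.9 FPKM, completed the ring (0.40, SE 0.08, adjusted p = 0.00521), and its adjusted p without Control 2 was 0.0511. The ring is built of 1 copy of each protein, yet its transcripts covered a wide range of Control FPKM, from 11.99 on average for SNRPE to 145 for SNRPB.

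**Figure D2:**
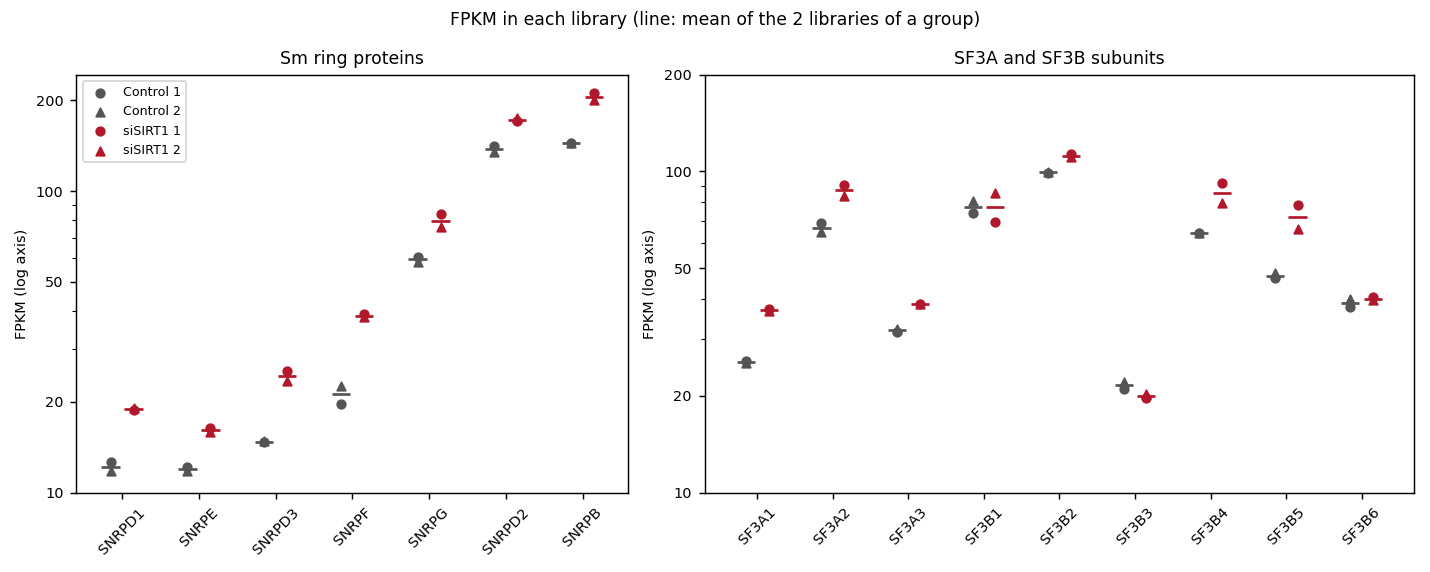
FPKM of the 7 Sm ring genes and the 9 SF3A and SF3B genes in each library (vertical log axis; grey, Control; red, siSIRT1; lines, means of the 2 libraries). The red points lie above the grey ones for every Sm ring gene and every SF3A gene, whereas SF3B1 at 69.4 and 85.9 FPKM in siSIRT1 cells straddles its Control values of 74.3 and 80.6 FPKM.

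Of the 4 proteins that mark the U1 or U2 particle, 3 rose, against 24% of all genes. SNRPC, the C protein of the U1 particle at the 5′ splice site, went from 73.1 and 67.3 FPKM to 93.4 and 85.6 FPKM (0.35, SE 0.07, adjusted p = 0.00525). SNRPA, the A protein of the U1 particle that binds a loop of U1 RNA, went from 56.9 and 58.2 FPKM to 73.4 and 67.7 FPKM (0.29, SE 0.06, adjusted p = 0.00839). SNRPB2 of the U2 particle had 20.4 and 20.7 FPKM in Control cells and 25.2 and 24.6 FPKM in siSIRT1 cells, with the smallest of these changes (0.26, SE 0.07, adjusted p = 0.0173). Its partner in the U2 particle, SNRPA1, did not pass, with 23.6 and 21.4 FPKM in Control cells against 24.1 and 26.5 FPKM in siSIRT1 cells (0.16, adjusted p = 0.159). The calls of SNRPA and SNRPB2 were lost without Control 1 and without Control 2 (adjusted p up to 0.0898 and 0.135), and that of SNRPC without Control 2 (0.0758).

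SNRPN, an imprinted gene whose product can replace SmB, also did not pass (20.7 and 20.9 FPKM in Control cells, 25.5 and 23.0 FPKM in siSIRT1 cells; 0.21, adjusted p = 0.0669). Its value is uncertain, because it shares 323 of its 1468 exon bases with SNURF, an upstream reading frame of the same transcript, and the tables list the pair at equal values in both Control libraries. The sum of SNRPN and SNURF was 41.5 and 41.8 FPKM in Control cells and 51.0 and 50.4 FPKM in siSIRT1 cells, with no overlap between the conditions.

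All 3 subunits of SF3A, which links the U2 particle to the branch site region, rose, against 24% of all genes. SF3A1 (chr22:30727977-30752883, minus strand) had 25.6 and 25.3 FPKM in Control cells and 37.3 and 36.8 FPKM in siSIRT1 cells (0.52, SE 0.06, adjusted p = 0.000482). SF3A2 went from 68.8 and 64.6 FPKM to 90.8 and 84.0 FPKM (0.38, SE 0.07, adjusted p = 0.00243). SF3A3 changed least of the 3, from 31.7 and 32.4 FPKM to 38.5 and 38.7 FPKM (0.26, SE 0.06, adjusted p = 0.0118), and its call was lost without either Control library (adjusted p up to 0.124).

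SF3B split into subunits that rose and subunits that did not pass. SF3B5, a small subunit (chr6:144416021-144416710, minus strand), went from 46.4 and 48.2 FPKM to 78.4 and 66.0 FPKM (0.59, SE 0.08, adjusted p = 0.000940). SF3B4, which contacts RNA near the branch site, went from 64.2 and 64.4 FPKM to 91.8 and 79.8 FPKM (0.41, SE 0.07, adjusted p = 0.00330). SF3B2, its binding partner, had 98.9 and 99.5 FPKM against 113 and 110.4 FPKM (0.17, SE 0.06, adjusted p = 0.0404), a call lost without Control 1, Control 2 or siSIRT1 1 (adjusted p up to 0.285). The scaffold subunit SF3B1, a frequent target of mutation in blood cancers, gave a log2 fold change of -0.00 with overlapping libraries (SE 0.10, adjusted p = 0.987). SF3B3 was lower in both siSIRT1 libraries without passing (21.0 and 22.1 FPKM against 19.7 and 20.3 FPKM; -0.10, adjusted p = 0.312), and SF3B6, which lies at the branch site adenosine, overlapped (37.9 and 40.1 FPKM against 40.5 and 39.7 FPKM; 0.04, adjusted p = 0.679).

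The subunits of U2AF, which work as a pair at the 3′ splice site, gave different results. U2AF1, the small subunit that reads the AG at the intron end, was at 34.9 and 32.0 FPKM in Control cells and at 48.7 and 43.8 FPKM in siSIRT1 cells (0.46, SE 0.08, adjusted p = 0.00226). U2AF2, the large subunit that binds the pyrimidine tract, was the most abundant gene of its class and had 189.9 and 188 FPKM in Control cells against 192 and 189 FPKM in siSIRT1 cells (0.01, SE 0.06, adjusted p = 0.912). The sign of the U2AF2 value depended on the scaling, and its value ran from -0.11 to 0.01 over the alternatives that kept all 4 libraries.

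U2AF1L4, a shorter relative of U2AF1, fell from 16.1 and 16.2 FPKM to 12.6 and 12.9 FPKM (-0.32, SE 0.08, adjusted p = 0.0139). Without either Control library its adjusted p rose to as much as 0.108. U2AF1L5, a near-identical copy of U2AF1, was listed at 0.64 and 0 FPKM in Control cells and at 0.57 and 5.62 FPKM in siSIRT1 cells, and passed the filter only through siSIRT1 2. Reads of the pair can be assigned to either gene, so their sum was also tested, an alternative chosen after the data were seen. The sum was 35.5 and 32.0 FPKM in Control cells and 49.3 and 49.4 FPKM in siSIRT1 cells (0.54, SE 0.07, adjusted p = 0.000642). Its siSIRT1 libraries were closer together than those of U2AF1 alone, and its Control libraries were further apart.

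SR proteins carry an RNA-binding part and a tail rich in arginine and serine. Their summed level was 461 and 460 FPKM in Control cells and 574 and 569 FPKM in siSIRT1 cells. The sums over all genes, given above, were also higher in siSIRT1 cells. SRSF7 moved most (chr2:38970741-38978503, minus strand). It had 39.9 and 38.7 FPKM in Control cells and 60.4 and 60.1 FPKM in siSIRT1 cells (0.60, SE 0.06, adjusted p = 0.000175). SRSF3, which acts with SRSF7 as an adaptor for mRNA export, went from 41.5 and 39.4 FPKM to 54.0 and 54.0 FPKM (0.41, SE 0.06, adjusted p = 0.00134). SRSF2, the most abundant SR gene here and a binder of exonic enhancers, went from 101.4 and 99.0 FPKM to 132 and 137 FPKM (0.42, SE 0.06, adjusted p = 0.000752). These 3 remained past the threshold in every alternative and without any 1 library.

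The remaining rises of the class were smaller or, for SRSF9, less certain because of an overlapping gene. SRSF9 went from 56.8 and 53.8 FPKM to 80.6 and 69.1 FPKM (0.43, SE 0.08, adjusted p = 0.00382), but 491 of its 1152 exon bases lie opposite exons of GATC, and whether the counting used strand is not given in the sources used here. SRSF4 went from 37.8 and 41.0 FPKM to 51.5 and 47.0 FPKM (0.31, SE 0.07, adjusted p = 0.0101), a call lost without Control 1 (adjusted p = 0.114). SRSF10, active in stress and mitosis when dephosphorylated, went from 12.8 and 12.3 FPKM to 14.6 and 16.02 FPKM (0.27, SE 0.09, adjusted p = 0.0401) and among the fits without 1 library was called only in the one without siSIRT1 1.

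The other 6 SR genes did not pass. SRSF5 was nearly level in all 4 libraries, with 49.0 and 49.5 FPKM in Control cells and 49.7 and 49.5 FPKM in siSIRT1 cells (0.01, SE 0.06, adjusted p = 0.916). SRSF1, the founding member of the family, gave 0.12 (adjusted p = 0.245), SRSF6 gave 0.12 (0.189) and SRSF11 gave 0.14 (0.116), each with both siSIRT1 libraries above both Control libraries. SRSF8 gave -0.02 and SRSF12, the lowest of the class at 1.72 to 2.17 FPKM, gave -0.15. Many SR genes make both a productive transcript and one with a poison exon that is degraded. The tables pool the isoforms of a gene, so these forms cannot be told apart in any of the values above.

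The hnRNPs were the most abundant class and the most mixed. Their summed level was 1796 and 1796 FPKM in Control cells and 2013 and 1982 FPKM in siSIRT1 cells. The sums over all genes were 402197 and 397094 FPKM in Control cells and 426279 and 408390 FPKM in siSIRT1 cells. Of the 21 hnRNPs tested 9 passed (42.9%, near the 37.1% of all genes), 7 of them higher. HNRNPM, a regulator of exon skipping, had the largest rise, from 71.0 and 66.7 FPKM to 97.2 and 89.2 FPKM (0.43, SE 0.07, adjusted p = 0.00148). HNRNPAB went from 90.9 and 88.2 FPKM to 124 and 112 FPKM (0.39, SE 0.07, adjusted p = 0.00230). HNRNPA2B1, which also sorts RNA in the cytoplasm, went from 166 and 167 FPKM to 213 and 221 FPKM (0.38, SE 0.06, adjusted p = 0.00120). HNRNPD, known as AUF1 for its binding to AU-rich elements, went from 56.9 and 55.9 FPKM to 73.7 and 69.3 FPKM (0.34, SE 0.06, adjusted p = 0.00321). These 4 kept their call without any 1 library.

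HNRNPL, which binds CA repeats, went from 222 and 229 FPKM to 280.4 and 263 FPKM (0.27, SE 0.06, adjusted p = 0.00902). The related G-tract binders HNRNPH1 (112 and 112 FPKM against 124 and 131 FPKM; 0.18, SE 0.06, adjusted p = 0.0375) and HNRNPF (125 and 125 FPKM against 140.4 and 142 FPKM; 0.17, SE 0.05, adjusted p = 0.0363) rose by small amounts. Without Control 1 or Control 2 none of these 3 calls remained, and HNRNPH1 also lost its call without siSIRT1 2. The other genes of the H and F family did not pass: HNRNPH3 gave -0.02, and HNRNPH2, which shares 230 of 2296 exon bases with the readthrough gene RPL36A-HNRNPH2 and is therefore uncertain, gave 0.10.

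A pair of hnRNP genes fell. HNRNPUL1 (chr19:41770277-41813692, plus strand), a relative of HNRNPU with a role in the response to DNA breaks, went from 85.2 and 86.3 FPKM to 63.6 and 59.1 FPKM (-0.48, SE 0.06, adjusted p = 0.000626). It was the largest fall among the 58 genes and was past the threshold in every alternative. HNRNPR (chr1:23631181-23670777, minus strand) went from 22.3 and 23.0 FPKM to 17.7 and 18.2 FPKM (-0.32, SE 0.07, adjusted p = 0.00909), a call lost without either Control library (adjusted p up to 0.0968). HNRNPUL2, the other relative of HNRNPU, was also lower in both siSIRT1 libraries without passing (36.7 and 35.9 FPKM against 33.2 and 30.7 FPKM; -0.18, adjusted p = 0.0697). HNRNPU itself, a nuclear scaffold protein, gave 0.11 (adjusted p = 0.184).

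HNRNPA1, the most abundant of all 59 genes in Control cells and the best known antagonist of SR proteins, did not pass. It stood at 243 and 249 FPKM in Control cells and at 260 and 253 FPKM in siSIRT1 cells (0.06, SE 0.06, adjusted p = 0.459), and its sign turned under 3 scalings and both trend removals. Reads of its near-identical relative HNRNPA1L2 (3.93 and 3.57 FPKM against 2.70 and 3.77 FPKM) cannot be told apart with certainty, but the sum of both genes, 247 and 253 FPKM against 262 and 257 FPKM, moved no more than HNRNPA1 alone. HNRNPK (0.04) and HNRNPC (0.11), also among the most abundant genes of the class, were likewise not called. Many of these genes, and of the Sm and SR genes, have processed pseudogenes elsewhere in the genome, and how reads shared with them were assigned is not given in the sources used here.

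Transcript length moved with the result. When all tested genes were split into 4 equal classes by the length of their canonical transcript, their median log2 fold change was 0.16 in the shortest class (249 to 2013 bases), 0.11 and 0.05 in the middle classes and 0.01 in the longest. The splicing factor genes had medians of 0.39 (20 genes), 0.18 (15), 0.16 (13) and -0.00 (9) in the same classes. Of the 12 snRNP genes 9 were in the shortest class, where 35.7% of all genes rose, and 7 of those 9 rose. After each library's smooth trend on length was removed, an alternative chosen after the data were seen, the median of the snRNP class went from 0.37 to 0.16 and that of the Sm ring from 0.50 to 0.32, beside 0.00 for all genes. SNRPD2 (0.05, adjusted p = 0.519), SNRPC (0.13, 0.0869), SNRPA (0.13, 0.0834) and SNRPB2 (0.16, 0.0982) then no longer passed. SNRPD3 and SNRPD1, with canonical transcripts of 3466 and 4858 bases, gave 0.61 and 0.56 after the removal and SNRPF gave 0.55, all still past the threshold. The other ring genes also still passed with smaller values, SNRPB at 0.32, SNRPE at 0.27 and SNRPG at 0.16 (adjusted p = 0.0343), where SNRPG had been at 0.42. Outside the snRNP class, SF3A3 (0.16, adjusted p = 0.0590), SF3B2 (0.09, 0.164), HNRNPF (0.07, 0.270) and HNRNPH1 (0.07, 0.349) also no longer passed. The other called genes of these classes still passed, among them U2AF1 at 0.26 and SRSF9 at 0.26. The cause of the length trend was not tested.

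**Figure D3:**
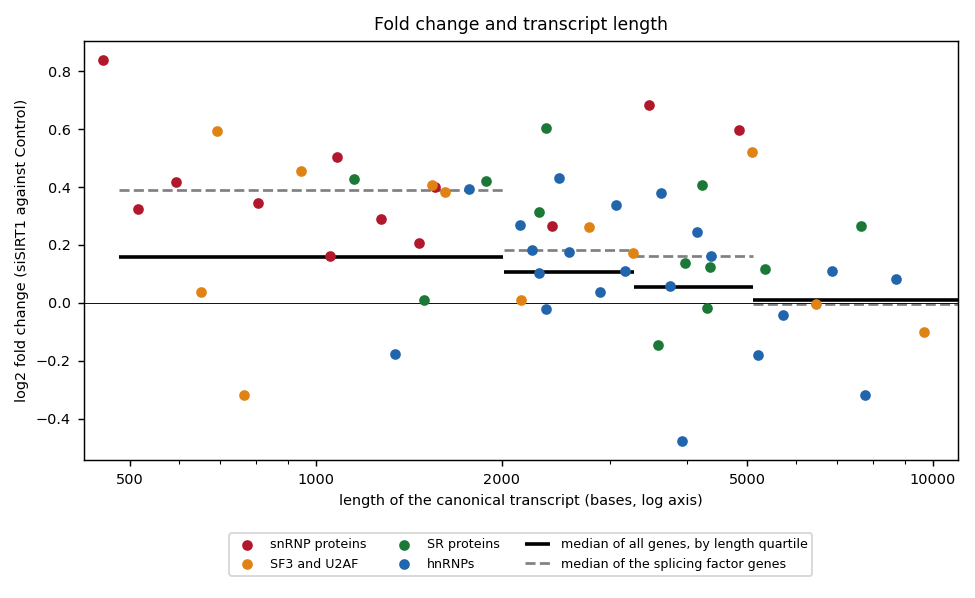
Log2 fold change (vertical axis) against the length of the canonical transcript in bases (log axis) for the splicing factor genes, coloured by class, with the median of all genes (black) and of the splicing factor genes (dashed grey) in each of 4 length classes. The black line steps down from 0.16 to 0.01, and the dashed line lies above it in the 3 shorter classes and at it in the longest.

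The order of the classes was also followed under each scaling. Median-of-ratios scaling took the median of all genes from 0.07 to -0.00, and the medians of the snRNP, SF3 and U2AF, SR and hnRNP classes to 0.29, 0.18, 0.12 and 0.02. Quantile normalization gave 0.30, 0.18, 0.13 and 0.04 in the same order, beside 0.02 for all genes. The hnRNP median was the nearest to that of all genes in both fits. Of the 33 genes called, 22 were called in each of 9 alternatives that kept all 4 libraries (19 higher and 3 lower), and 19 of the 22 were also called without any 1 library. The other 11 were SRSF4, SRSF10, HNRNPL, HNRNPF, HNRNPH1, SNRPD2, SNRPC, SNRPA, SNRPB2, SF3A3 and SF3B2, of which SRSF10, HNRNPF, HNRNPH1 and SF3B2 passed in at most 3 of the 9 alternatives. None of the 33 changed sign in any of these fits.

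**Figure D4:**
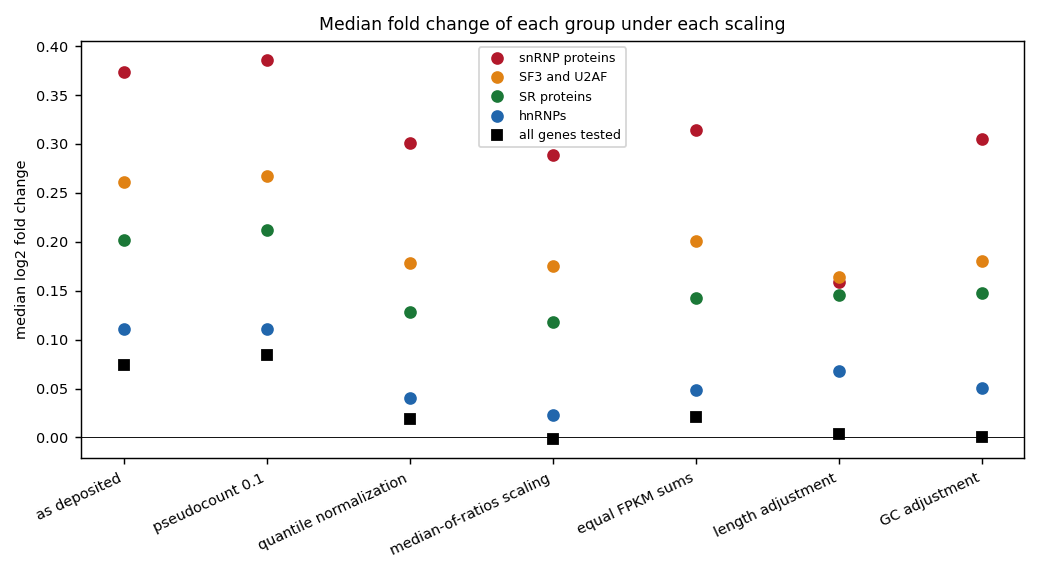
Median log2 fold change (vertical axis) of each class and of all genes tested under the values as deposited and 6 other scalings or settings (horizontal axis). The snRNP median lies highest in all but the length adjustment, where it drops from 0.37 to 0.16. There it meets those of the SF3 and U2AF (0.16) and SR (0.15) genes. The SF3 and U2AF median counts U2AF1L5, which has no length and was left unadjusted.

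Promoter sequence, which the choice of genes did not use, was described for each class. RefSeq windows from 250 bases before to 50 bases after each start (GRCh38.p14) were found for 55 of the 59 genes, and 7 short motifs, none of which contains another, were searched on both strands. The core of ETS factor sites, CCGGAAG, occurred in a window of 63.6% of snRNP genes (7 of 11) and 58.3% of SF3 and U2AF genes (7 of 12), against 18.2% of SR genes, 14.3% of hnRNP genes and 18.7% of all genes with a window. CCAAT occurred in 85.7% of hnRNP genes (18 of 21), against 45.5% of snRNP, 18.2% of SR, 8.3% of SF3 and U2AF and 42.4% of all genes. CACGTG was found in 33.3% of hnRNP genes, 0 of 11 snRNP genes and 11.7% of all genes. TATAAA was found in 12.7% of the splicing factor genes (10.3% of all genes), GGGCGG in 67.3% (70.9%), CAAGATGGC in 3.6% (2.7%) and the NRF1 core in 0 of 55 (2.3%). Genes with several starts have several windows and so more chances of a match.

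The ETS core is shown in 5 snRNP promoters, 30 bases each on the strand of the gene, since its share was highest in the snRNP class. All 5 genes rose. The carriers not shown are SNRPC, which rose, and SNRPA1, which did not pass (0.16, adjusted p = 0.159). Capitals mark CCGGAAG or, where it lies on the opposite strand, CTTCCGG.
SNRPB (SmB; chr20:2470813-2470842, minus strand, 41 bases before the start): tagtgagctggaCCGGAAGtaggtttctac
SNRPB2 (U2 particle; chr20:16729919-16729948, plus strand, 95 bases before): gctgccagagacCCGGAAGcatcgatcggc
SNRPE (SmE; chr1:203861597-203861626, plus strand, 241 bases before): ttctttattCCGGAAGttgctctcagaggc
SNRPD2 (SmD2; chr19:45692362-45692391, minus strand, 63 bases before): aggtccatgcccCTTCCGGatgtaggcagg
SNRPG (SmG; chr2:70293491-70293520, minus strand, 50 bases before): acttcatttcttCTTCCGGtccgaggtcgc
With the match, 6 of 7 snRNP genes rose (median 0.35) and without it 3 of 4 rose (median 0.49), among them SNRPF and SNRPD3, the genes with the largest changes. Over all tested genes with a window, the median was 0.10 with the match and 0.07 without. With 2 genes that did not rise, these counts cannot show whether the match and the rise go together. A match is a description of letters and not of a bound factor.

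Partial matches to the siRNA were searched in the 3′ untranslated regions of the canonical transcripts. The match to the seed of the complementary strand, CCTTTGC, was present in 6 of 57 splicing factor genes with a 3′ untranslated region (10.5%) and in 15.6% of all 12017 such genes. Of the genes that carried it, 4 had risen (HNRNPD, HNRNPH1, SF3A3 and SRSF3) and 0 had fallen. The match to the seed of the listed strand, CATGACA, was present in 8 of 57 (10.2% of all genes), of which 2 had risen (SRSF3 and SRSF7) and 0 had fallen. The other carriers of CATGACA in the 3′ untranslated region did not pass. HNRNPUL2 gave -0.18, SF3B3 -0.10, HNRNPA3 -0.04 and SRSF8 -0.02, while SRSF1 gave 0.12 and SRSF11 0.14. Over the 12017 genes with such a region, the median log2 fold change was 0.06 with CCTTTGC and 0.08 without it, and 0.04 with CATGACA and 0.08 without it. Longer regions have more chances of a match, and the median of all genes fell with transcript length. The part of length in these differences was not tested. The sites in SRSF3 and SRSF7 are shown because both genes rose while carrying a match (capitals).
SRSF3, CCTTTGC at base 564 of 3611: gaaagtttaCCTTTGCtttaggtca
SRSF3, CATGACA at base 2627 of 3611: gtcagcgtcCATGACActcccaccc
SRSF7, the first of 2 CATGACA at base 484 of 1534: tgaatgcatCATGACAgatccttaa
HNRNPUL1, HNRNPR and U2AF1L4, the 3 genes that fell, carried neither match.

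The wider pathway was described with 111 further genes in 11 lists by role. Of these 109 were tested, 43 rose and 5 fell (44% called, against 37.1% of all genes), with a median of 0.17. The lists were drawn up with earlier results of these data known, so these counts are a description. Without Control 1 or Control 2, 24 or 20 were called in place of 48, and without the mean-variance trend 31 were. Proteins specific to single snRNPs under SNRNP symbols rose in 4 of 7 cases (57.1% called). SNRNP25 of the minor spliceosome had the largest change of the wider pathway, from 9.35 and 7.64 FPKM to 21.2 and 16.1 FPKM (1.04, SE 0.14, adjusted p = 0.00068). The Lsm ring, the counterpart of the Sm ring on U6 RNA, rose in 4 of 7 genes (57.1% called) with a median of 0.40. LSM3 went from 16.6 and 19.7 FPKM to 38.3 and 33.1 FPKM (0.94, SE 0.10, adjusted p = 0.00025), while LSM6 gave 0.76, LSM7 0.61 and LSM2 0.40. LSM4, LSM5 and LSM8 did not pass (0.04, 0.15 and 0.09).

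PRPF factors, many of which belong to the tri-snRNP, rose in 5 and fell in 2 of 13 cases (53.8% called, against 37.1% of all genes). PRPF3, a protein of the U4/U6 particle, went from 30.6 and 28.8 FPKM to 54.5 and 56.2 FPKM (0.88, SE 0.07), and PRPF8, the core protein at the catalytic centre, went from 113 and 113 FPKM to 143 and 153 FPKM (0.39, SE 0.06). PRPF39 (0.58), PRPF38B (0.44) and PRPF4B (0.42) rose too, but lost their calls without Control 1, without Control 2, and without Control 1 or siSIRT1 2, respectively. PRPF4, the direct partner of PRPF3 in the U4/U6 particle, fell from 11.4 and 11.5 FPKM to 8.43 and 8.93 FPKM (-0.37, SE 0.09, adjusted p = 0.0133). The list of helicases and a GTPase had rises in 4 of 9 cases (44.4% called), the GTPase among them. DDX23 of the U5 particle went from 39.3 and 39.6 FPKM to 63.9 and 65.3 FPKM (0.70, SE 0.06). DDX46, which acts on the U2 particle, gave 0.56.

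Genes at the branch site rose in 2 of 7 cases (28.6% called, below the 37.1% of all genes), with PHF5A, a small protein of the SF3B complex, at 0.39, a call lost when the length trend was removed (0.21, adjusted p = 0.0515). The Prp19 complex and related genes rose in 4 of 13 cases (30.8% called, also below all genes), with the largest value in CWC15 (0.35), a call lost without Control 2 or siSIRT1 1 and made in only 2 of the 9 alternatives that kept all libraries (adjusted p up to 0.155). The exon junction complex, deposited upstream of joined exons, rose in 4 of 6 cases (66.7% called) with the helicase EIF4A3 at 0.38. Assembly factors of the snRNPs rose in 5 of 11 cases (45.5% called, against 37.1% of all genes). They were led by GEMIN7 of the SMN complex (0.55), whose call was lost without Control 2 or siSIRT1 2. SR-related proteins rose in 5 and fell in 1 of 8 cases (75% called). SREK1 rose from 7.84 and 8.61 FPKM to 11.9 and 13.9 FPKM (0.59, SE 0.11). SRRM2, a very large scaffold of nuclear speckles, fell from 192 and 193 FPKM to 162 and 166 FPKM (-0.23, SE 0.06).

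Other splicing regulators rose in 6 and fell in 2 of 22 cases (36.4% called, about the share of all genes). RBFOX2, a regulator of epithelial and mesenchymal splicing programs, fell from 18.7 and 18.8 FPKM to 9.86 and 11.5 FPKM (-0.76, SE 0.09, adjusted p = 0.00046) and remained past the threshold without any 1 library. MBNL2 fell from 21.98 and 22.8 FPKM to 14.5 and 19.3 FPKM (-0.40, SE 0.12), a call lost without 3 of the 4 libraries in turn, the exception being siSIRT1 2. RALY, an hnRNP C relative that does not carry the HNRNP symbol, rose (0.49). Of the 6 SRPK and CLK genes in the list of SR protein kinases, 0 passed: SRPK1 gave -0.18 (adjusted p = 0.0868), SRPK2 gave -0.14, and the CLK genes lay between -0.08 and 0.10.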

How the data were processed

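RNA-seq libraries of PANC-1 cells (2 Control, 2 siSIRT1) were analysed from the tables the authors deposited, which give FPKM for 16878 genes per library. The submitters' processing notes name Bowtie2, HISAT, RSEM and ChIPseeker without roles; the genome build is not given in the sources used here. The depth of each library, 8810000 to 9150000 reads, was estimated from the steps of low FPKM values in genes with a single exon and is approximate. FPKM are not counts, so no count test was run, and a gene's precision is limited by these depths.

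The 59 genes were found by symbol. They and the lists were chosen with earlier results of these data known. The 12191 genes averaging 1 FPKM or more were tested on log2(FPKM + 1) with limma 3.58.1 in R 4.3.3 (lmFit, eBayes with a mean-variance trend), two-sided, with Benjamini-Hochberg adjustment over all of them and a threshold of 0.05; this scale understates changes of low genes. The fit was tested on simulated data. Alternatives were a pseudocount of 0.1, no filter (genes at 0 in all libraries left out), quantile normalization, median-of-ratios scaling, equal FPKM sums, no trend, the replicate number as a block, each library left out, and the study's thresholds (fold over 1.2, p under 0.001, here unadjusted). Removal of each library's trend on transcript length or GC content (lowess, span 0.3) was chosen after seeing the data. Lengths, GC content, coordinates and 3′ untranslated regions are those of GENCODE 44 canonical transcripts on GRCh37. Names came from RefSeq GRCh38.p14, which matched 16846 identifiers, and promoters from its windows of 13443 genes.

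Genes were named by rule: SIRT1, every member that passed, the 2 most abundant members of each class, members sharing reads with another gene, and of the wider pathway the called gene of largest change per list plus 10 more by size. Members outside this rule (those that did not pass) and LSM4, LSM5, LSM8, PRPF4, SRRM2 and the SR kinases were named after their values were seen. The values of 1 gene of the wider pathway are not reported here.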

Additional observations from a re-analysis of the deposited data

How the results depend on the processing

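Counts moved by more than 1.5 times mainly when a Control library was left out and with the study's thresholds. Over the fits without 1 library, genes called ran from 2691 to 4608 (4521 with all libraries), splicing factor genes higher from 19 to 31, lower from 1 to 4, hnRNPs called from 5 to 11, snRNP proteins from 5 to 11, SF3 and U2AF from 5 to 8, SR proteins from 4 to 6 and the wider pathway from 20 to 48. With the study's thresholds applied to the limma p-values, 2207 genes were called and 1 splicing factor gene was lower. In that setting 5 hnRNPs, 5 SF3 and U2AF genes and 18 of the wider pathway were called. The paper reports more genes at these thresholds and names no test for its RNA-seq calls, so the counts are not alike. Without the mean-variance trend, 31 of the wider pathway were called. Removal of the length trend, chosen after seeing the data, gave 6 snRNP proteins called and 5 splicing factor genes lower. None of the 33 splicing factor genes called changed sign. The uncalled log2 fold change of HNRNPA1 turned to -0.0129 with quantile normalization, -0.0294 with median-of-ratios scaling, -0.0034 with equal FPKM sums, -0.0042 with the length and -0.0077 with the GC adjustment. That of U2AF2 turned to -0.0079, -0.0784, -0.0524, -0.1075 and -0.0689 in the same order, and ran from -0.0018 to 0.0206 over the fits without 1 library. The cause of these shifts was not tested. The fits without a library also had fewer samples, the same number in each of them. The replicate numbers are shared by title only, with a correlation of 0.123 between the deviations of same-numbered libraries. A fit with the replicate block called 5393 genes, 33 splicing factor genes higher and 4 lower. Depth limits genes with few reads, such as SNRPF, whose short transcript had an estimated 66 to 77 reads in Control cells.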
